A study of Mus musculus with 2 samples.

Results

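The genes described here are 42 components of the bone morphogenetic protein (BMP) and transforming growth factor beta (TGF-beta) pathways: 16 ligands, 11 receptors, 8 Smad proteins and 7 antagonists. They were chosen by name from knowledge of the pathway, and all 42 names matched a gene among the 43346 genes of the deposited tables. The RNA came from neural tubes of B6NCrl mouse embryos at embryonic day 11.5, both sexes pooled, with no treatment and no altered allele. There is 1 group with 2 libraries, made from a pool of 109 embryos (replicate 1) and another of 88 embryos (replicate 2). The labels call each library total RNA-seq of molecules longer than 200 bases from 10 ng of RNA, but a linked protocol document is named SmartSeq, so how RNA was primed and selected is not certain. The design compares no conditions, so the data bear on which components were present, at what level, in which splice form, and how closely the pools matched. In a bulk tissue, fewer cells that express a gene and less RNA per cell cannot be told apart.

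BMP and TGF-beta ligands are secreted dimers that bring together type I and type II receptor kinases at the cell surface. The type I kinase then phosphorylates receptor-regulated Smads (R-Smads): Smad1, Smad5 and Smad9 after BMPs, and Smad2 and Smad3 after TGF-betas and activins. These join Smad4 and enter the nucleus, while inhibitory Smads and secreted antagonists hold the signal back. In the neural tube, BMPs and GDFs (growth and differentiation factors) from the roof plate and the overlying ectoderm are known for patterning dorsal progenitors, and Gdf11 for limiting progenitor output and for positional identity along the axis.

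The libraries held 27638068 and 29166901 expected counts, which are reads assigned to genes with fractions where a read fits several. The 42 genes took 0.214% and 0.208% of them, from 4.42 to 8810 counts a gene in replicate 1 and from 7 to 9038 in replicate 2. Levels are given in TPM, the abundance of transcripts in the library after correction for their length, which allows genes to be compared. All 6 neuron markers and all 6 neural progenitor markers were detected. Tubb3 (679 and 802 TPM) and Stmn2 (322 and 363 TPM) led for neurons, and Fabp7 (726 and 745 TPM) and Hes5 (149 and 173 TPM) for progenitors. Detection alone does not identify the tissue, since 13 of 14 marker lists were detected in full. The median was 207 TPM for neuron, 35.3 TPM for progenitor and 824 TPM for erythroid markers. Markers of other tissues were present too, with all 6 erythroid, all 8 endothelial, all 6 skeletal muscle and 7 of 8 mesenchyme markers detected, so a gene's level here can include blood, vessel, muscle and connective tissue cells.

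Of the 42 genes, 33 (78.6%) reached 1 TPM or more in both libraries, beside 59.9% of 21474 protein-coding genes. All 11 receptors did so, with 7 of 8 Smads, 6 of 7 antagonists and 9 of 16 ligands. The genes outside the 33 were 7 ligands (Tgfb1, Bmp3, Bmp8a, Bmp8b, Gdf5, Gdf6 and Gdf7), Smad9 and Grem1. The median over the 42 genes was 8.33 ± 0.474 TPM (SD, n = 2), against 4.36 ± 0.0601 TPM over protein-coding genes. Fstl1 stood highest at 167.8 ± 3.75 TPM, above 96.0% of protein-coding genes, and Bmp8b lowest at 0.155 ± 0.0919 TPM.

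**Figure D1:**
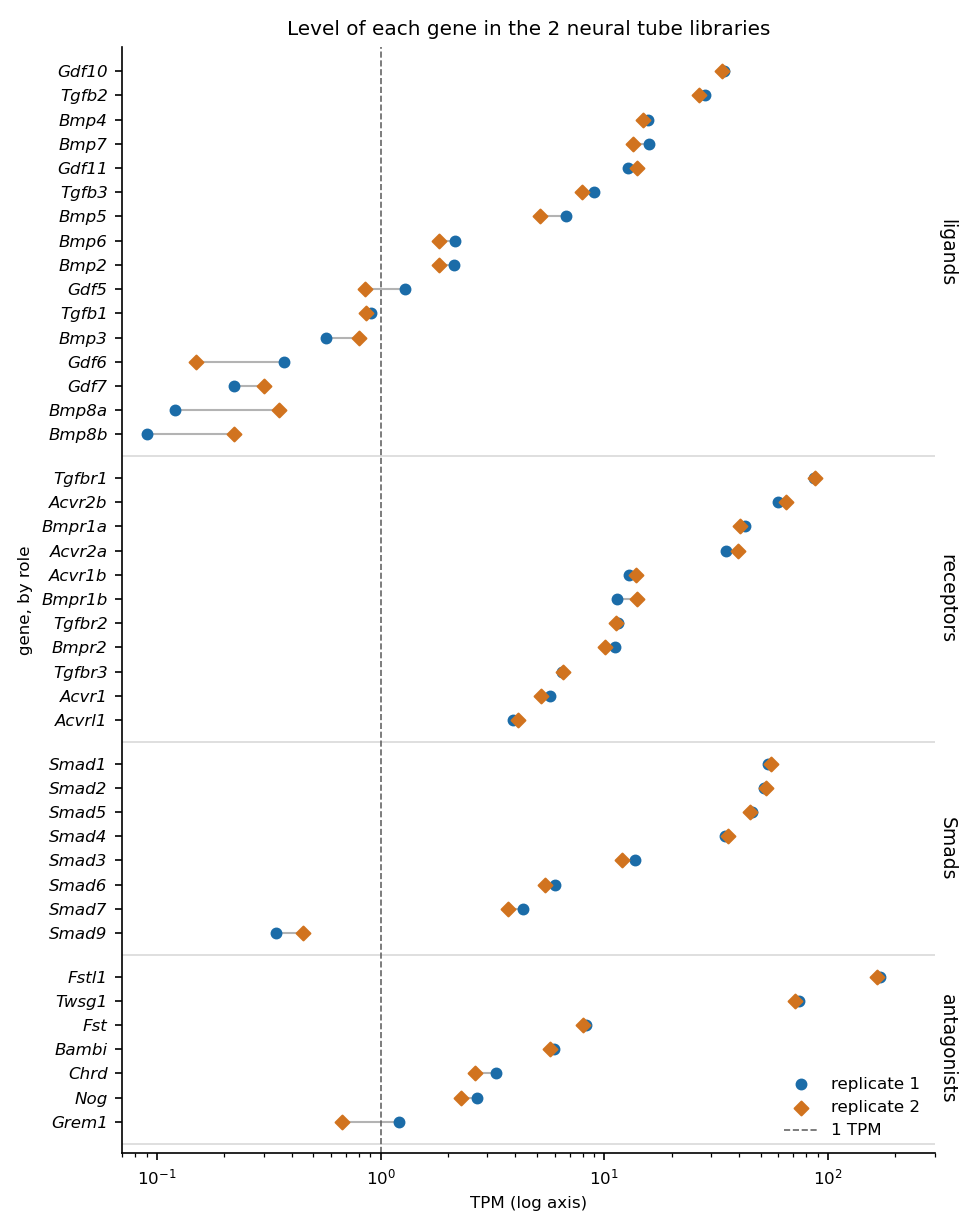
TPM (log axis) of each of the 42 genes in replicate 1 (circles) and replicate 2 (diamonds), by role and in order of the mean; a grey line joins the 2 libraries and the dashed line marks 1 TPM. All 11 receptors lie right of the line, while 7 of the 16 ligands lie left of it in at least 1 library.

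Among the BMP and GDF ligands, Gdf10 was the most abundant. Gdf10 (ENSMUSG00000021943.6, chromosome 14, 33923587 to 33937983, GRCm38), a close relative of Bmp3, had 34.5 TPM in replicate 1 and 33.8 TPM in replicate 2. Its lowest library lay above the highest of every other ligand, and it made up 37.9% ± 0.922 of the summed TPM of the 13 BMP and GDF ligands (SD, n = 2). Its relative Bmp3 had 0.57 and 0.80 TPM, so that Gdf10 was 51.3 ± 12.9 times higher.

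A group of 3 ligands followed whose library values overlapped in part. Bmp4, an early dorsalizing signal of ectoderm and roof plate, had 15.8 and 14.8 TPM. Bmp7, which acts alone or paired with other BMPs, had 15.9 and 13.5 TPM, and its range enclosed that of Bmp4. Gdf11, which signals through activin-type receptors and Smad2 and Smad3, had 12.7 and 14.0 TPM and overlapped Bmp7 but not Bmp4. Bmp4, Bmp7 and Gdf11 made up 17.0% ± 0.0555, 16.3% ± 1.26 and 14.9% ± 1.57 of the BMP and GDF ligand sum.

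The remaining BMP and GDF ligands were scarce. Bmp5, of the same subgroup as Bmp7, had 6.75 and 5.18 TPM, and Bmp6, also of that subgroup, had 2.16 and 1.83 TPM. Bmp2, the closest relative of Bmp4, had 2.13 and 1.82 TPM and could not be placed above or below Bmp6. Part of Bmp6 lies opposite the exons of Txndc5, which had 124 and 129 TPM. The overlap was 224 bases, or 5.74% of the exon bases of Bmp6, and because the strand used in counting is not stated, reads there cannot be told apart. A larger part of Bmp5, 46.7% of its exon bases, lies opposite the antisense gene Gm26903, which had 0.02 and 0 TPM.

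The 3 ligands of the Gdf5 subgroup were at or under 1 TPM in at least 1 library. Gdf5, known from joint development, had 1.29 and 0.85 TPM from 50 and 34 counts. Of its exon bases, 40.3% lie opposite Gm15557, which had 0 and 0 TPM. Gdf6, a dorsal ectoderm and skeletal signal, had 0.37 and 0.15 TPM from 22 and 9 counts. Gdf7, a classical roof plate ligand, had 0.22 and 0.30 TPM from only 5 and 7 counts, and its exact Poisson 95% intervals, which cover counting error only, ran from 0.0714 to 0.513 TPM and from 0.121 to 0.618 TPM. All 6 roof plate markers were detected and lay above Gdf7, with a median of 6.44 TPM and a lowest mean of 2.345 TPM. The 2 highest were Msx1 (44.0 and 43.8 TPM) and Zic1 (13.4 and 14.2 TPM). Neither is particular to the roof plate here, since Msx1 is also listed as a BMP target and Zic1 as a marker of meninges. Bmp8a and Bmp8b, a neighbouring pair of similar genes, had 0.12 and 0.35 TPM and 0.09 and 0.22 TPM. They share sequence over 4.54% of the 100-base windows of Bmp8a, so their counts may have been split between them, and their values overlapped with those of Gdf6 and Gdf7. Exons of Bmp8b also lie opposite those of Ppie, which had 76.7 and 81.5 TPM. That overlap was 133 bases, or 3.43% of the exon bases of Bmp8b, and reads there cannot be told apart either.

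The 3 TGF-beta ligands differed by more than the spread between pools. Tgfb2 (ENSMUSG00000039239.10, chromosome 1, 186622792 to 186705989) had 28.2 and 26.5 TPM, Tgfb3 had 9.03 and 7.97 TPM, and Tgfb1 had 0.91 and 0.86 TPM. No library value of one reached that of the next. Tgfb2 made up 74.5% ± 0.770 of their sum and was 30.9 ± 0.101 times as abundant as Tgfb1 (SD, n = 2). These values and the sums below count all transcripts of a gene. Protein-coding transcripts took only 59.13% and 55.85% of the Tgfb2 TPM. A retained-intron model supplied 7.56 and 6.68 TPM from 105.06 and 95.85 of the gene's 1375 and 1288 counts. A coding transcript took 100% of Tgfb3, so the lead of Tgfb2 over Tgfb3 is smaller on coding transcripts. The place of Tgfb2 among ligands by coding TPM was not tested. Summed over ligands, the BMP and GDF group reached 90.1 ± 3.54 TPM and the TGF-beta group 36.7 ± 1.97 TPM, a ratio of 2.45 ± 0.04. These groups follow gene names and not the Smads used. Gdf11, which signals through Smad2 and Smad3, counts in the BMP and GDF group at 14.9%. The ratio therefore does not compare ligands by the Smads they act on.

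Of the 23 genes whose transcripts were compared, Tgfb2 had the smallest share in its leading transcript, 31.2% and 30.8% of the gene's TPM. Protein-coding transcripts together took 59.1% and 55.9%; 2 short retained-intron models took most of the rest. The main coding forms differ by an alternative exon of 84 bases, or 28 codons, at chr1:186690721-186690804 on the minus strand (GRCm38). It lies in the part of the gene that encodes the propeptide, which keeps the secreted ligand latent. The sequence is shown because it separates the coding forms; capitals mark the alternative exon, and the lower-case letters are the neighbouring coding bases.
Tgfb2: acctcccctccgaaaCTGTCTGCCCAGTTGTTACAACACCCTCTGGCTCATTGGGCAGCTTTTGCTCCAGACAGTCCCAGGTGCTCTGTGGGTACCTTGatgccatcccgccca
The form with this exon took 47.2% of the pair's TPM in replicate 1 and 44.8% in replicate 2, or 46.0% ± 1.70 (SD, n = 2). Both forms were thus estimated at similar levels in each pool. The transcript with the exon is 3485 bases long and the other 5116 bases, so reads outside the exon entered these shares.

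Among type I receptors, which carry the kinase that acts on Smads, Tgfbr1 led. Tgfbr1 (ENSMUSG00000007613.11, chromosome 4, 47353222 to 47414931), the receptor kinase shared by TGF-betas and Gdf11, had 86.4 and 87.8 TPM and stood above 91.6% of protein-coding genes. Acvr1b, the activin type I receptor, had 12.9 and 13.8 TPM, so that Tgfbr1 made up 86.7% ± 0.414 of the sum of both. Of the BMP type I receptors, Bmpr1a had 42.5 and 40.5 TPM, Bmpr1b 11.4 and 14.1 TPM, and Acvr1 5.71 and 5.24 TPM. These 3 did not overlap, and Bmpr1a, which is broadly expressed in progenitors, made up 69.5% ± 2.50 of their sum. The TGF-beta and activin type I sum exceeded the BMP type I sum 1.68 ± 0.02 times, from 100.5 ± 1.61 and 59.7 ± 0.127 TPM. Acvrl1, a receptor known best from endothelium, was the lowest receptor at 3.89 and 4.13 TPM; the 8 endothelial markers, led by Egfl7 and Cldn5, summed to 193 and 206 TPM, and its cellular source was not tested. For Acvrl1 the deposited intervals, 4.28 to 7.71 and 4.22 to 7.01, did not contain the deposited TPM. The same held for Tgfbr1, with intervals of 82.0 to 86.0 and 83.4 to 87.4, and for the antagonist Twsg1, at 74.2 and 71.4 TPM with intervals of 69.8 to 73.7 and 67.2 to 71.0. For these 3 of the 42 genes the level is less certain than the spread between pools alone implies.

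Type II receptors bind ligand and activate the type I kinase. Acvr2b, which binds activins, Gdf11 and several BMPs, had 59.8 and 64.7 TPM, and its relative Acvr2a had 35.2 and 39.6 TPM. Tgfbr2, which binds TGF-betas, had 11.5 and 11.3 TPM, and Bmpr2, the dedicated BMP type II receptor, had 11.1 and 10.1 TPM. All 4 stood apart from each other, with Acvr2b at 51.1% ± 0.458 and Acvr2a at 30.7% ± 1.14 of their sum (SD, n = 2). Tgfbr1 thus exceeded its type II partner Tgfbr2 by 7.64 ± 0.199 times, and Acvr2b exceeded Bmpr2 by 5.90 ± 0.737 times. The lead of Acvr2b rests on length correction. Its counts (1676 and 1871) were below those of Acvr2a (3422 and 3976) and Bmpr2 (2460 and 2274). The effective lengths used in replicate 1 were 1611 bases for Acvr2b, 5587 for Acvr2a and 12717 for Bmpr2. Acvr2a overlaps Orc4 on the opposite strand by 446 bases, or 7.84% of its exon bases, and Orc4 had 108 and 105 TPM. Tgfbr3 (betaglycan), a co-receptor without kinase that presents TGF-beta2 and binds inhibin, had 6.47 and 6.56 TPM.

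Receptor transcripts also came in forms that differ by a short in-frame segment of the extracellular part. The coding segments are shown because each one is the whole coding difference between the forms that were measured; capitals mark the alternative bases and lower case the coding bases on each side. The segments are 75 bases (25 codons) in Tgfbr2 at chr9:116158271-116158345 on the minus strand, 24 bases (8 codons) in Acvr2b at chr9:119428201-119428224 on the plus strand, and 12 bases (4 codons) in Tgfbr1 at chr4:47393247-47393258 on the plus strand, all in GRCm38.
Tgfbr2: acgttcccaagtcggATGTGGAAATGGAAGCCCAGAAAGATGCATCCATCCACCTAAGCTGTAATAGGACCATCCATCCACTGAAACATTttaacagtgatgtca
Acvr2b: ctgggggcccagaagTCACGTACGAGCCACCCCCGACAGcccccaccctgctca
Tgfbr1: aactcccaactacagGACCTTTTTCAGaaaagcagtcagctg

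The long form was the minor one for Tgfbr2 and the major one for Acvr2b and Tgfbr1. For Tgfbr2, the form with the 75 bases took 30.4% of the pair in replicate 1 and 26.0% in replicate 2, or 28.2% ± 3.18 (SD, n = 2). This long form is known as the type IIB receptor, reported to bind TGF-beta2 without help from betaglycan. For Acvr2b, the form with the 24 bases took 56.7% and 57.7%, so both forms were abundant. For Tgfbr1, the form with the 12 bases took 96.2% and 97.0%, nearly the whole of the pair. The Tgfbr2 transcripts have lengths that differ by exactly the 75 bases. Those of Acvr2b, Tgfbr1 and Tgfb2 also differ in untranslated sequence, so reads outside the segment entered their estimates.

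**Figure D2:**
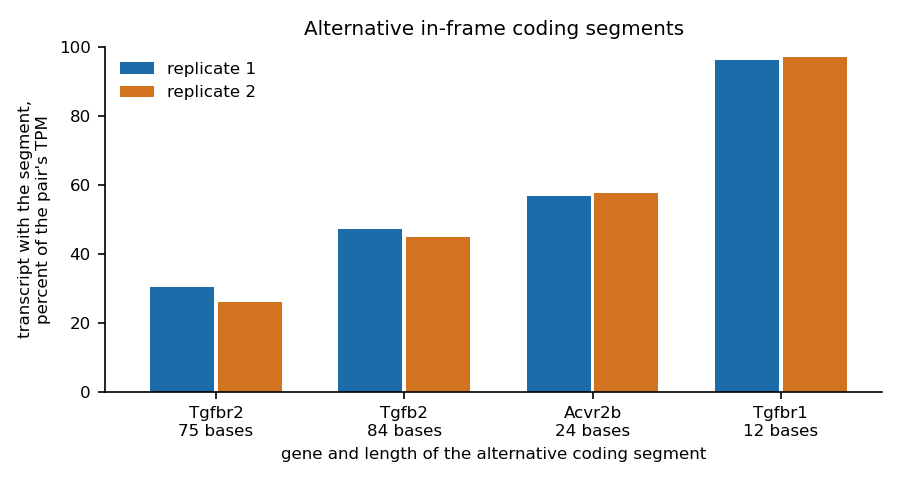
Percent of the pair's TPM taken by the transcript with the alternative coding segment, for 4 genes, in replicate 1 (left bar) and replicate 2 (right bar); 1 library a bar, so no error bar. Tgfbr2 bars lie at 30.4% and 26.0%, Tgfb2 and Acvr2b bars nearer the middle, and Tgfbr1 bars at 96.2% and 97.0%.

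Among the Smads, Smad1, Smad2 and Smad5 were the most abundant, and no neighbouring genes in the order of the 8 Smads overlapped between libraries. Smad1 (ENSMUSG00000031681.10, chromosome 8, 79338395 to 79399518) had 53.8 and 55.4 TPM and Smad5 45.8 and 44.7 TPM. Smad9, the remaining BMP R-Smad, had 0.34 and 0.45 TPM from 31 and 43 counts, so Smad1 exceeded it 140.7 ± 24.8 times. Smad2 had 52.0 and 53.0 TPM and Smad3 13.7 and 12.1 TPM, a ratio of 4.09 ± 0.429 (SD, n = 2). The BMP R-Smads summed to 100.3 ± 0.467 TPM and the TGF-beta R-Smads to 65.4 ± 0.488 TPM, a ratio of 1.53 ± 0.02.

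Smad4, the partner that R-Smads of both branches share, had 34.7 and 35.8 TPM, below Smad1, Smad5 and Smad2 in both libraries and at 0.671 ± 0.00717 of Smad2. The inhibitory Smads were lower. Smad6, which blocks mainly BMP signals, had 6.02 and 5.41 TPM, and Smad7, which blocks both branches, had 4.32 and 3.73 TPM. Together they reached 9.74 ± 0.849 TPM.

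**Figure D3:**
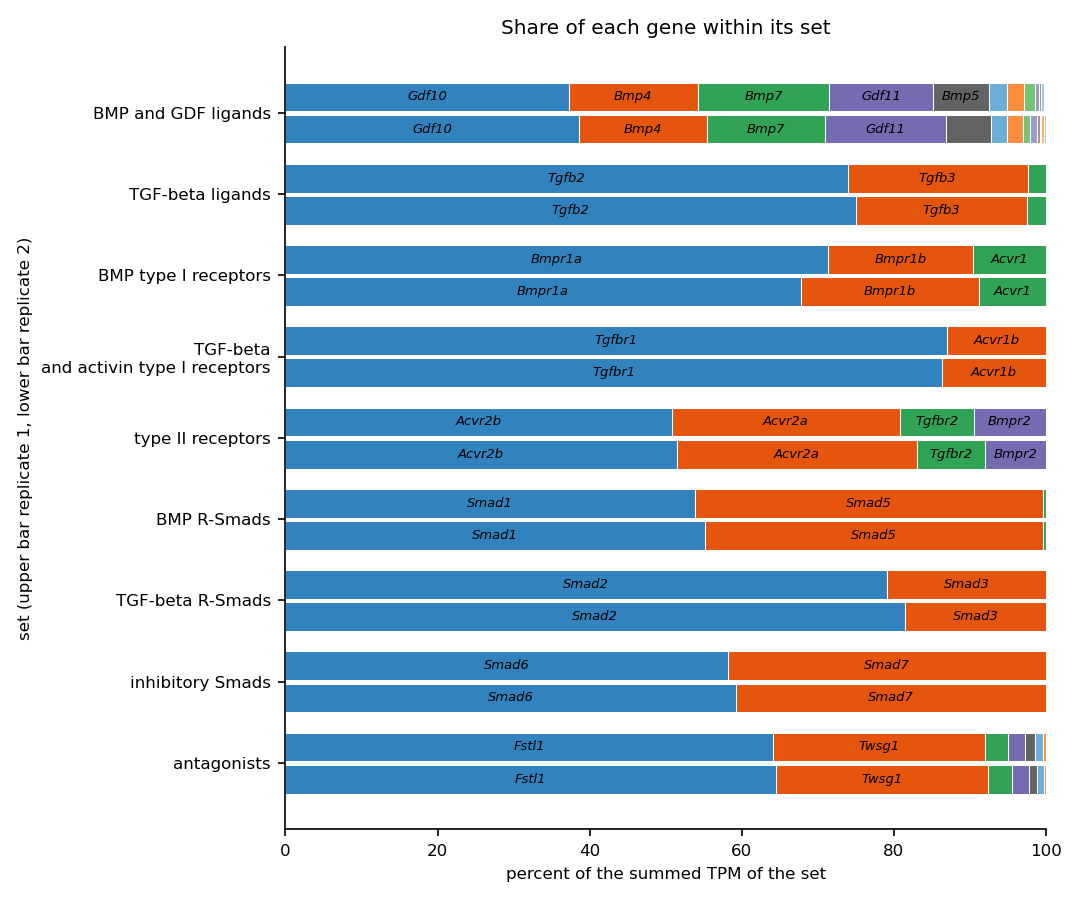
Percent of the summed TPM of each of 9 sets (rows) taken by each gene, with the upper bar for replicate 1 and the lower bar for replicate 2; colours separate genes within a row only, and genes with narrow segments are not lettered. The same gene leads each set in both libraries, from 37.9% on average for Gdf10 to 86.7% for Tgfbr1.

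The antagonists were dominated by Fstl1 and Twsg1. Fstl1 (ENSMUSG00000022816.7, chromosome 16, 37776873 to 37836514), a secreted follistatin-related glycoprotein, had 170.4 and 165 TPM and 64.3% ± 0.331 of the antagonist sum. Twsg1, which modulates BMP binding together with chordin, had 74.2 and 71.4 TPM and 27.9% of it. The classical BMP and activin traps were far lower: Fst, which binds activins and Gdf11, had 8.30 and 8.02 TPM. Chrd (chordin) had 3.28 and 2.65 TPM and Nog (noggin) 2.70 and 2.30 TPM, and these overlapped. Bambi, a membrane pseudoreceptor without kinase, had 5.94 and 5.72 TPM. Grem1, a BMP antagonist known from limb buds, had 1.21 and 0.67 TPM from 85 and 49 counts. Twsg1 exceeded its partner Chrd 24.8 ± 3.06 times, and Fstl1 exceeded its relative Fst 20.6 ± 0.0388 times.

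Compared by role, the ligands had the lowest median. It was 1.99 ± 0.226 TPM for the 16 ligands, 12.7 ± 1.63 TPM for the 11 receptors, 24.1 ± 0.170 TPM for the 8 Smads and 5.83 ± 0.156 TPM for the 7 antagonists. On the log2(TPM + 1) scale the receptor median exceeded the ligand median by 2.19 ± 0.28, the Smad median by 2.91 ± 0.06 and the antagonist median by 1.20 ± 0.08 (SD, n = 2). The Smad median exceeded the receptor median by 0.72 ± 0.22, and the antagonist median minus the receptor median was -0.997 ± 0.206. The genes of a role are not replicates, so no test was made. The order rests on the scarce ligands: with only genes at 1 TPM or more in both libraries, the ligand median was 13.1 TPM, and the receptor and antagonist medians minus the ligand median were -0.0498 and -0.83. Neighbouring genes in the order of all 42 overlapped between libraries in 21 of 41 pairs.

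The leading transcript of each gene compared was the same in both pools. Of the 42 genes, 26 have several annotated transcripts, and 23 of these had a mean of 1 TPM or more. In 23 of 23 the same transcript led in both libraries, beside 89.8% of 10005 genes treated alike. In 12 of the 23 the leading transcript took 90% or more of the gene in both libraries, among them Bmp5, Bmp7, Bmpr1a, Smad1 and Smad5. Acvrl1 was among the least settled, with its leading transcript at 72.0% and 60.5%. By posterior mean TPM the same Acvrl1 transcript took only 36.95% and 34.78%. For Smad2 the leading transcript took 82.9% and 72.6%, and a shorter one 11.7% and 22.1%. The shorter Smad2 transcript lacks an exon of 90 bases that is known to hinder DNA binding, but its last coding exon also differs, so its share does not isolate that exon.

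Between the pools, 41 of the 42 genes could be compared, since Gdf7 stayed under 10 counts. The ratio of replicate 2 to replicate 1 was taken after TMM scaling, which sets the bulk of genes equal between libraries. Of the 41, 5 genes (12.2%) passed 1.5-fold, beside 10.8% of 17219 genes, a share near the background. Gdf6, Grem1 and Gdf5 were lower in replicate 2, at log2 ratios of -1.20, -0.86 and -0.61, beside 5.94% of genes past 1.5-fold in that direction. Bmp8a and Bmp8b were higher, at 1.03 and 0.93, beside 4.87% of genes. All 5 had a mean near or below 1 TPM and 85 counts or fewer in each library.

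A two-sided exact binomial test of the counts, with Benjamini-Hochberg adjustment over the 17219 genes, compares these libraries only and no condition. With 1 library a side, its p covers counting error only, treats reads as independent, and measures no spread between pools. It called 10 of the 41 genes (24.4%) at an adjusted p below 0.05, beside 20.1% of all genes. Of the 10, 8 were lower in replicate 2 (19.5% of the 41), beside 9.63% of genes called lower, and 2 were higher, beside 10.5% of genes called higher. The lower ones included the ligands Bmp7 (log2 ratio -0.30, adjusted exact binomial p = 0.000178), Bmp5 (-0.33, p = 0.0147) and Tgfb2 (-0.18, p = 0.0102). The receptor Bmpr2 (-0.20, p = 4.6e-05), the signal transducers Smad3 (-0.25, p = 0.000633) and Smad2 (-0.12, p = 0.0324), and the antagonists Twsg1 (-0.10, p = 0.00634) and Grem1 (-0.86, p = 0.00658) made up the other lower calls of the exact binomial test. The receptors Bmpr1b (0.25, p = 0.000587) and Acvr2a (0.13, p = 0.00176) were higher in the same exact binomial test. Apart from Grem1, each called gene differed by less than 1.5-fold. With libraries scaled by their total counts the Smad2 call was lost, and its TPM was not lower in replicate 2 (52.0 and 53.0); the effective length the files use to turn its counts into TPM was 2521 bases in replicate 1 and 2346 bases in replicate 2.

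By role, replicate 2 had the lower scaled count for 10 of 15 ligands, 5 of 11 receptors, 5 of 8 Smads and 7 of 7 antagonists. Only 2 of the 7 antagonists were called lower by the exact binomial test. Of 15 other extracellular antagonists of the pathway with enough counts, 9 were lower and 6 were higher in replicate 2. The median log2 ratio was -0.09 over the 41 genes and -0.002 over all genes tested. Some marker lists leaned 1 way: 0 of 8 mesenchyme, 0 of 6 skeletal muscle and 0 of 6 pericyte markers were higher in replicate 2. Other lists were split, with 4 of 8 endothelial, 3 of 6 erythroid, 3 of 6 macrophage and 3 of 6 neural progenitor markers higher. Also higher were 1 of 8 paraxial mesoderm, 1 of 6 floor plate, 1 of 6 surface ectoderm and 2 of 6 meninges markers. Roof plate had 4 of 6 higher and neural crest 5 of 6. Summed levels in replicate 1 and replicate 2 were 674 and 602 TPM for mesenchyme, led by Col3a1 and Col1a2. For muscle, led by Actc1 and Acta1, they were 464 and 384 TPM. All 6 neuron markers were higher in replicate 2, with sums of 1545 and 1796 TPM. No marker of these lists was at 0, and the part of these cells in the ratios of the pathway genes was not tested.

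**Figure D4:**
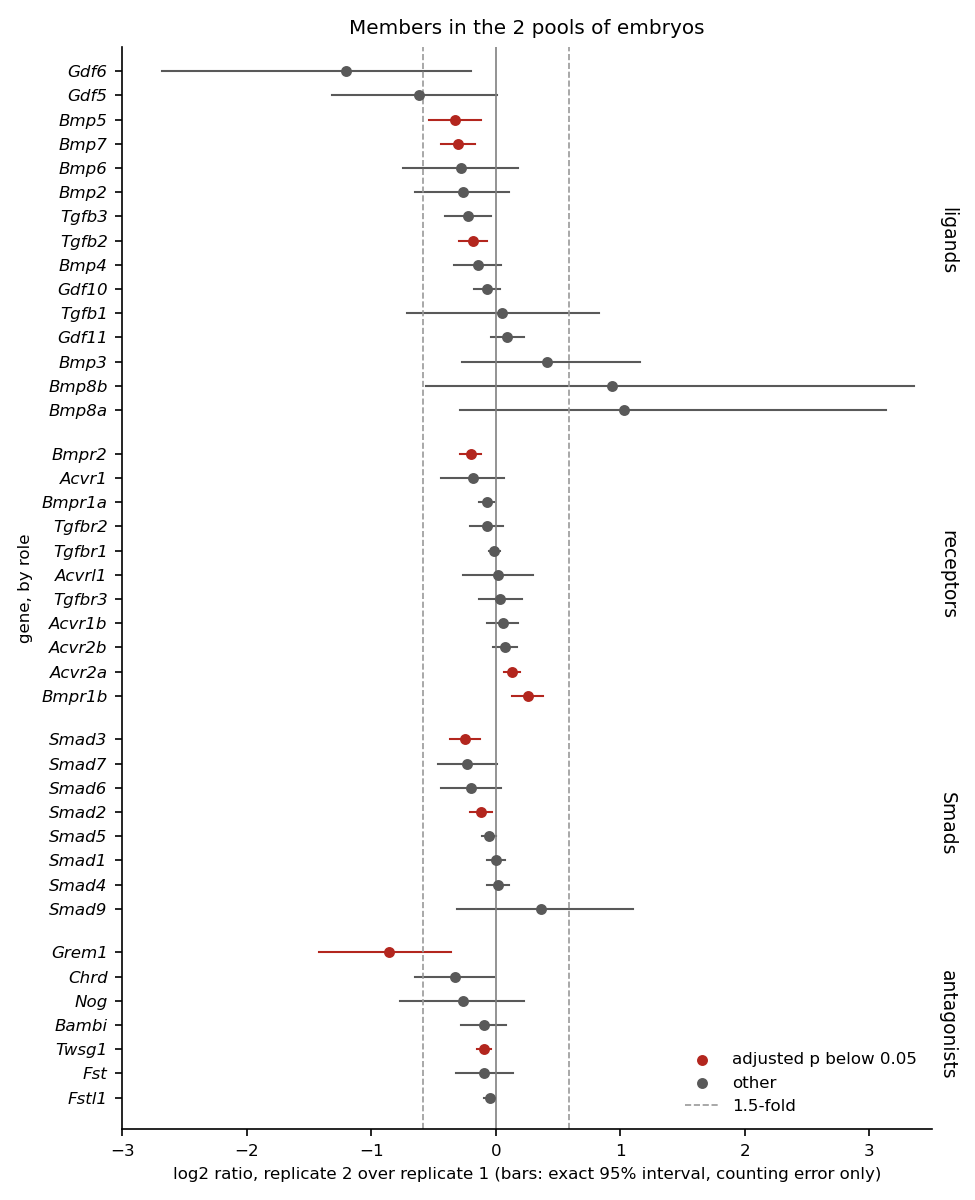
Log2 ratio of replicate 2 to replicate 1 for 41 genes after TMM scaling, by role, with exact 95% intervals that cover counting error only; red marks an adjusted exact binomial p below 0.05 and dashed lines mark 1.5-fold. All 7 antagonists lie left of 0, 2 of them in red, and the 5 genes past a dashed line are Gdf5, Gdf6, Bmp8a, Bmp8b and Grem1.

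Other genes of the pathway were taken from lists by function. Of 16 further ligands, 3 were detected in both libraries and 13 were below 1 TPM in both, among them Nodal at 0.03 and 0.03 TPM. The detected ones were Mstn (myostatin), the closest relative of Gdf11, at 10.6 and 8.89 TPM, the oocyte factor Gdf9 at 2.02 and 2.12 TPM, and the inhibin subunit Inha at 1.75 and 2.02 TPM. Mstn is known from muscle, and the 6 skeletal muscle markers were all present, at the sums given above. Of 10 further receptors and co-receptors 6 were detected and 4 were below 1 TPM in both. The BMP co-receptors of the repulsive guidance family led them, with Rgmb at 77.5 and 80.9 TPM and Rgma at 30.3 and 31.7 TPM, and with their receptor Neo1 at 32.0 and 34.0 TPM.

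Of 17 further antagonists 12 were detected and 4 lay below 1 TPM in both, led by Nbl1 (17.7 and 17.4 TPM), Kcp (9.48 and 10.3 TPM) and Fstl5 (8.09 and 9.22 TPM), all below the Twsg1 level. Of 13 genes of latency and matrix storage 12 were detected, led by the integrin subunit Itgav (43.2 and 36.9 TPM), decorin Dcn (32.9 and 35.2 TPM) and fibrillin Fbn2 (33.5 and 31.6 TPM). Of 8 proteases that process ligands or chordin 7 were detected, led by Bmp1, the chordin-cleaving protease that is no BMP, at 30.3 and 31.7 TPM, then Pcsk7 at 12.4 and 12.8 TPM and Pcsk5 at 6.60 and 6.09 TPM. Of 20 Smad regulators and partners 18 were detected. They were led by Strap (193 and 195 TPM), a receptor-binding protein with other roles in RNA assembly, and by the corepressors Tgif2 (72.1 and 67.5 TPM) and Tgif1 (49.7 and 52.5 TPM).

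Known target genes of both branches were present. The 13 BMP targets had a median of 16.2 TPM and 12 were detected. The highest were the inhibitors of differentiation Id3 (366 and 349 TPM), Id2 (268 and 234 TPM) and Id1 (100.2 and 92.1 TPM). The 15 TGF-beta targets had a median of 24.2 TPM, and 12 were detected. The highest were Col1a2 (130.2 and 121 TPM), Col1a1 (99.6 and 87.8 TPM) and Fn1 (71.4 and 69.8 TPM), while 3 of the list were below 1 TPM in both libraries. Col1a1 and Col1a2 are also mesenchyme markers here, and other pathways act on many genes of both lists. In the exact binomial test between the pools, 1 of 13 BMP targets was higher and 4 were lower in replicate 2, where 10.5% of all genes were called higher and 9.63% lower. Of the 13 TGF-beta targets with enough counts 6 were lower, against the same 9.63% of all genes. Of the 8 mesenchyme markers, which share Col1a1 and Col1a2 with that list, 7 were called lower, and their part was not tested.

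**Figure D5:**
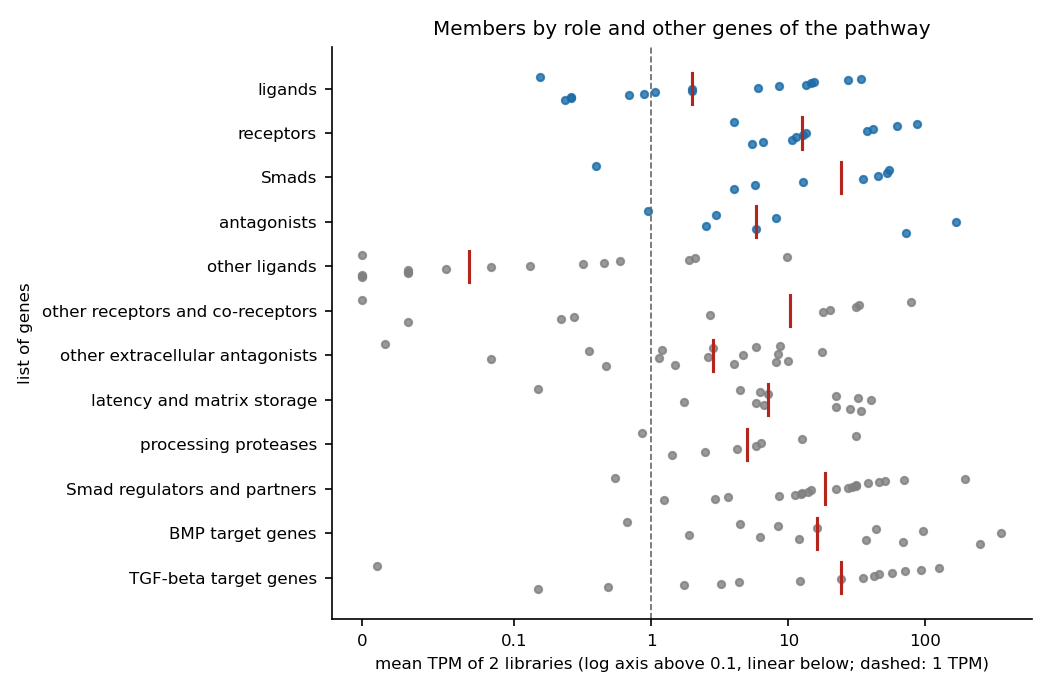
Mean TPM of the 2 libraries for each gene (points) of the 4 roles described here (blue) and of 8 lists of other pathway genes (grey), on an axis that is logarithmic above 0.1 TPM and linear below; red bars mark list medians and the dashed line marks 1 TPM. The further ligands have the lowest median and the TGF-beta targets a median of 24.2 TPM.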

How the data were processed

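Total RNA-seq of 2 pools of embryonic day 11.5 neural tube was deposited as tables of genes and transcripts, aligned to mm10 with annotation M4, per the deposited file descriptions; no aligner or quantifier is named there, and none is given in the sources used here. The authors deposited expected counts, TPM over all entries with spike-ins included (13.2% and 11.8% of TPM), the percent of each transcript in its gene, and interval bounds on the TPM scale, treated as a score because their level is not stated. Replicate numbers come from the labels; SDs measure only the spread between these pools, and p-values only counting error between 2 libraries.

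Symbols, positions and sequences came from GENCODE M21 (GRCm38), which matched 42462 of 43346 gene IDs; its transcript models can differ in their ends from those counted. Of the listed pathway genes, Gdf1 was not matched and is not analysed here. Expected counts were rounded for edgeR 4.0.16 TMM factors and log2 ratios (prior count 2, genes with 10 counts in either library). The two-sided exact binomial test with Benjamini-Hochberg adjustment was run in R 4.3.3 and tested on simulated data. The exact Poisson intervals came from scipy 1.17.1. DESeq2 1.42.0 gave alternative size factors. With 2 values a gene, 2 genes cannot reach an exact two-sided permutation p below 0.333, so levels were compared by whether library values overlap. Every one of the 42 genes is named, with the 3 highest of each further pathway list and the 2 highest of each marker list whose levels are given. Nodal was named after its values were seen. The genes and lists were chosen with earlier results of these data known.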

Additional observations from a re-analysis of the deposited data

How the results depend on the processing

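The role differences depended most on the choice of scale and genes. Receptor minus ligand medians became 3.14 with TMM-scaled counts without length correction, 2.61 with a pseudocount of 0.1 and -0.0498 with only genes at 1 TPM or more. Smad minus ligand medians became 3.58, 3.36 and 1.36, and antagonist minus ligand medians 1.46, 1.51 and -0.83, under the same choices. Smad minus receptor medians became 0.44 with these counts and 1.41 with detected genes only, and antagonist minus receptor medians -1.68 and -0.78. That last choice leaves out 7 of the 16 ligands. The counts of genes detected, past 1.5-fold, called by the exact binomial test and with a shared leading transcript stayed within 1.5 times the reported count under each alternative run for them; with total counts 9 genes were called, without Smad2. The other values moved by more than the spread between pools in 10 cases: 9 were role medians, under TPM rescaled without spike-ins, posterior means or detected genes only, and the other was the Smad6 share of inhibitory Smads under posterior means. No paired analysis was possible because there is a single group. Depth limits Gdf7, Gdf6, Bmp8a and Bmp8b, which had 22 counts or fewer in each library.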

Other observations

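Several genes held transcripts that encode no full protein. In Fstl1, the most abundant of the 42 genes, a short non-coding transcript took 21.1% of the gene's TPM in replicate 1 and 19.1% in replicate 2, with 490 and 444 expected counts. In Chrd, a transcript marked for nonsense-mediated decay took 0% and 16.8%, from 0 and 26.7 expected counts. In Tgfb2, 2 retained-intron models took 26.8% and 25.2%, and 11.7% and 16.5%, of the gene. Unspliced precursor RNA was not measured here. In Bmp4, which has 3 annotated transcripts, a retained-intron model took 7.11% and 11.0%, from 8.14 and 12.25 expected counts. The other Bmp4 transcripts are protein-coding: the leading one took 70.3% and 75.8% and the next 22.6% and 13.2%.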
